A study of Mus musculus with 4 samples.

Results

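In mouse embryonic fibroblasts that lack Anp32e, 806 H2A.Z peaks each spanned ground that the wild-type peak list divides into 2 or more separate peaks. These joining peaks were chosen by position alone, as knockout peaks that share at least 1 bp with each of 2 or more wild-type peaks. They are 1.92% of the 41912 knockout peaks and took in 1644 of the 37667 wild-type peaks, or 4.36%. The selection used both lists, so the numbers below that come from the contrast of the lists describe the joining peaks and are no test of it.

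H2A.Z stands in for the core histone H2A in some nucleosomes, often in those that flank the nucleosome-poor stretch at an active promoter. Chaperones and remodelling complexes place it there and take it away again. Anp32e is a chaperone that binds H2A.Z and is known for removing it from chromatin. In ChIP-seq a stretch of enriched chromatin is reported as a peak, and enriched stretches that lie close together are reported as 1 peak or as several, depending on how far the signal falls between them.

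The knockout sample was an H2A.Z ChIP-seq library from Anp32e-/- fibroblasts, and the wild-type sample was the same from Anp32e+/+ fibroblasts, both from crosses of Anp32e+/- mice on a C57BL/6 background. Each culture came from the torso of a single embryo at embryonic day 10.5, without head and inner organs, and was used between passages 5 and 10. Chromatin was sonicated and read in single-end reads of 50 bases. There was 1 library per genotype, the matching input libraries were not analysed here, and the deposited peak lists hold positions on mm9 with no height or read count. Depth is therefore unknown, no difference has a replicate check, and the lists hold nothing that checks the genotype or the cell type. Intervals in brackets are exact 95% intervals that cover counting error over peaks only.

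The joining peaks mostly closed a single short gap. Of the 806, 776 joined exactly 2 wild-type peaks, 26 joined 3, 3 joined 4 and 1 joined 5. Together they bridged 841 gaps between neighbouring wild-type peaks, which is 2.23% of the 37647 gaps in the list. The bridged gaps ran from 1 to 2511 bp with a median of 171 bp [154 to 193] and quartiles of 66 and 411 bp. The gaps of the whole wild-type list had a median of 16699 bp. Gaps of under 50 bp made up 157 of the bridged ones (18.7%), and gaps of 1000 bp or more made up 57 (6.78%). Merging peaks of each list within 500 bp first removes the short gaps, and 523 merged knockout peaks then joined others with a median of 871 bp bridged, but 398 of these were themselves made of 2 or more listed knockout peaks.

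The nearer a pair of wild-type peaks lay, the more often a single knockout peak covered both. Of the 866 wild-type gaps under 250 bp, 517 were bridged, or 59.7% [56.3 to 63.0]. The share was 26.5% [23.02 to 30.1] for gaps from 250 to under 500 bp, 12.7% from 500 to under 750 bp and 6.50% from 750 to under 1000 bp. It was 4.11% from 1000 to under 1500 bp, and of the 1698 gaps from 2000 to under 3000 bp only 6 were bridged. From 3000 to under 5000 bp 0 of 2819 gaps were bridged, which allows a share of up to 0.106%, and 0 of the 28647 longer ones, which allows up to 0.0105%. Those limits are 3 counts over the number of gaps, and the exact intervals end at 0.131% and 0.0129%. In finer bins of 50 bp the share was 76.2% [69.8 to 81.9] for the shortest gaps and 48.4% [40.3 to 56.5] for those from 150 to under 200 bp.

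Knockout peaks bridged a larger share of gaps than wild-type peaks did in each of the 7 gap classes with a bridged gap. The reverse count was 219 wild-type peaks, 0.581% of their list, that each overlapped 2 or more knockout peaks. They bridged 161 of 968 knockout gaps under 250 bp, or 16.6% [14.3 to 19.1]. When 50% of each joined peak had to be covered, 118 such wild-type peaks were left. Under 1000 bp, knockout peaks bridged 784 of 2545 wild-type gaps, or 30.8% [29.02 to 32.6], and wild-type peaks bridged 213 of 2980 knockout gaps, or 7.15% [6.25 to 8.13]. The intervals of both directions did not overlap in any of the 5 gap classes below 1500 bp. Knockout peaks were also the wider ones in general. Among 28979 matched pairs, each a knockout and a wild-type peak that overlap only one another, the knockout peak was wider by a median of 215 bp. Of the bridged wild-type gaps, 478 (56.8%) were no longer than those 215 bp and 363 (43.2%) were longer. The part of the general difference in width in the bridging was not tested.

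**Figure D1:**
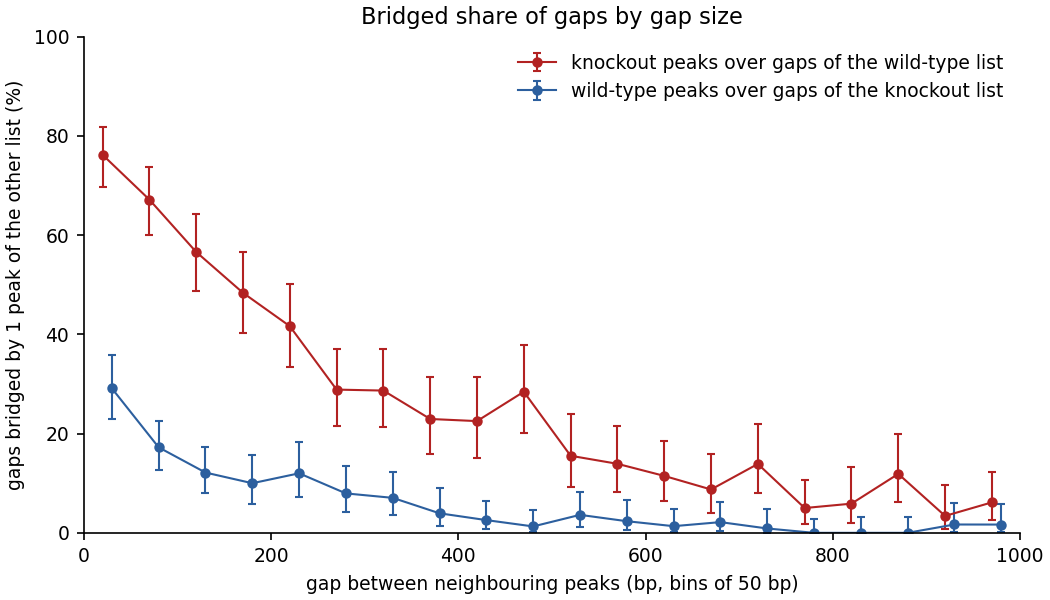
Share of gaps bridged by a single peak of the other list (y axis, %) against gap length (x axis, bp, bins of 50 bp), for knockout peaks over wild-type gaps and wild-type peaks over knockout gaps, with exact 95% intervals as bars. The knockout share starts at 76.2% in the shortest bin, where the wild-type share is 29.1%.

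Pairs that were not joined met different ends. Among wild-type pairs with gaps under 250 bp, 18.01% kept a knockout peak each, 17.3% had a knockout peak on 1 of the pair and 4.97% had none on either. A separate knockout peak on each side was the most frequent state in every gap class from 250 bp on. It made up 42.4% from 250 to under 500 bp and 56.1% [51.7 to 60.5] from 750 to under 1000 bp. Where both wild-type peaks had a knockout partner, the bridged share under 250 bp was 76.8% [73.4 to 80.0]. Open gaps with a knockout peak on either side were mostly narrower in the knockout once they exceeded 250 bp. For wild-type gaps from 750 to under 1000 bp the median open gap measured 657 bp among knockout peaks and 875 bp among wild-type peaks. Within those 285 pairs the median difference was -213 bp [-266 to -173], and 220 gaps were shorter in the knockout. Under 250 bp the open gaps had medians of 153.5 bp among knockout and 149 bp among wild-type peaks, with 73 of 156 shorter in the knockout. Pairs whose gap closed are not among the open ones.

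**Figure D2:**
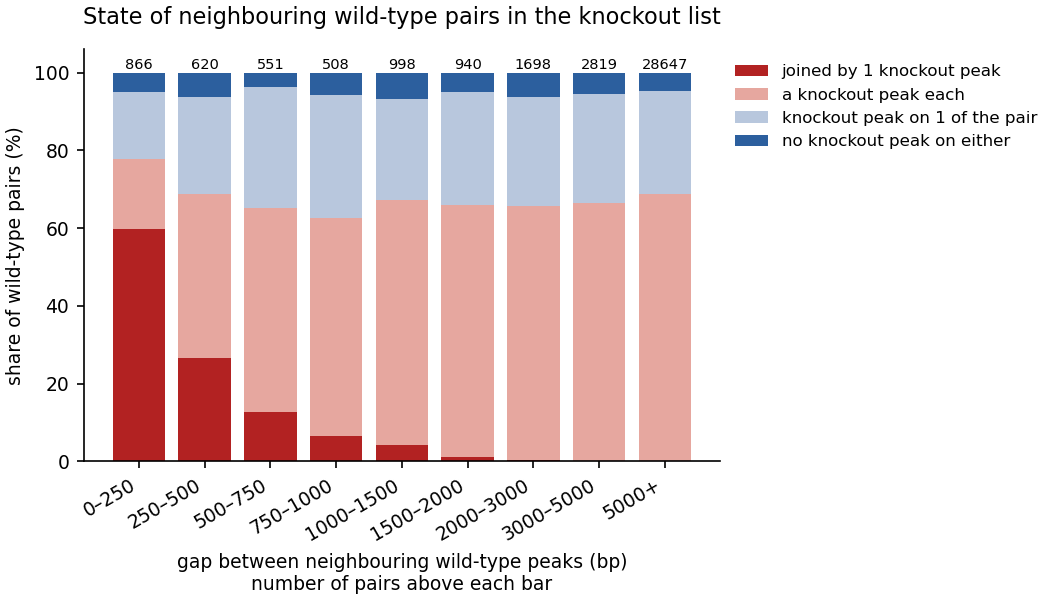
State of neighbouring wild-type pairs in the knockout list (y axis, % of pairs) by gap between the pair (x axis, bp), with the number of pairs above each bar. The joined share falls to 6.50% at 750 to under 1000 bp and 0 from 3000 bp on, while pairs with a knockout peak on neither side stay between 3.81% and 6.71%.

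The wild-type peaks that were joined were close in size and surroundings to unjoined pairs with equal gaps. For gaps under 250 bp the narrower peak of a pair had a median width of 1236 bp [1195 to 1281] in bridged pairs and 1209 bp [1160 to 1256] in unbridged ones. The wider peak had 1939 bp [1852 to 2012] in bridged pairs and 2003 bp [1896 to 2076] in unbridged ones. The intervals of bridged and unbridged pairs also overlapped in the other 5 gap classes below 2000 bp, for both peaks. Around gaps under 250 bp, both kinds of pair had a median of 5 other wild-type peaks within 50 kb. The intervals were [4 to 5] and [5 to 6], and the upper quartiles 7 and 9, in bridged and unbridged pairs. From 250 to under 500 bp the upper quartiles were 9 and 8. Under 1000 bp the narrower peak was 0.677 times as wide as its neighbour in the median bridged pair and 0.675 times in the median unbridged pair.

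The joining peaks were among the widest of the knockout list, as the rule makes likely. Their median width was 3760 bp [3640 to 3875] with quartiles of 2936 and 4778 bp, against 2121 bp for knockout peaks with exactly 1 wild-type partner. The widest was 13374 bp and the narrowest 1232 bp. Joining peaks were 173 of the 472 knockout peaks over 5 kb (36.7%), 24 of the 32 over 8 kb and 9 of the 10 over 10 kb, while peaks over 5 kb were 1.13% of the list. The wild-type peaks they joined had a median width of 1543 bp each, and the widest within each joined set had a median of 1993.5 bp.

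Most of the sequence under the joining peaks was already under wild-type peaks. The joining peaks covered 3255 kb, of which 81.2% lay under the wild-type peaks, 8.07% in the bridged gaps and 10.8% beyond the outermost wild-type edges. The median peak held 174.5 bp of bridged gap [157 to 197] and 271 bp beyond the outer edges [243 to 299]. From first to last edge the joined wild-type peaks spanned a median of 3605.5 bp, and within each set the knockout peak was wider than that span by a median of 221 bp [183 to 242]. Its outer edges lay a median of 117.5 bp farther out on the side of lower coordinates [97 to 129] and 104 bp on the other [83 to 122]. The same edges of matched single pairs lay 93 and 95 bp farther out. Shortening knockout peaks by 107 bp at each end takes off about the matched-pair difference in all. The joining peaks then exceeded the span by a median of 35 bp. Only outer ends move in this way, so no gap inside a peak is opened.

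The joining peaks covered the joined wild-type peaks to differing degrees, and the counts that follow overlap. In 409 of them (50.7%) the knockout peak reached past the wild-type peaks on both sides, and 555 (68.9%) were wider than the wild-type span. In 624 (77.4%) at least 90% of the joined wild-type bases were covered. In 396 (49.1%) the knockout peak ended inside the outer wild-type peak, by 1 bp or more, on at least 1 side. Counted per joining peak, 264.8 kb of the joined wild-type peaks lay outside it. Some of that lay under other knockout peaks, and 3 wild-type peaks shared by 2 joining peaks were counted for both. At least 50% of each of 2 or more wild-type peaks was covered in 668 (82.9%). In 69 (8.56%) a joined wild-type peak also overlapped another knockout peak, so that both lists cut the same stretch at different places. Close to the limit of 1 bp, the joining peak at chromosome 5, 135751748 to 135753331, took in only 2 bp of a wild-type peak. Next to it came chromosome 17, 28825875 to 28827431, with 3 bp and chromosome 2, 119095759 to 119097600, with 4 bp. Just outside the limit, knockout peaks with 1 partner lay 0 bp (chromosome 3, 32606939 to 32608742), 2 bp (chromosome 4, 149084174 to 149085390) and 3 bp (chromosome 10, 127532945 to 127535394) from the next wild-type peak. In all, 7 joining peaks had a smallest overlap of 10 bp or less, and 14 knockout peaks with 1 partner lay within 10 bp of another wild-type peak.

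**Figure D3:**
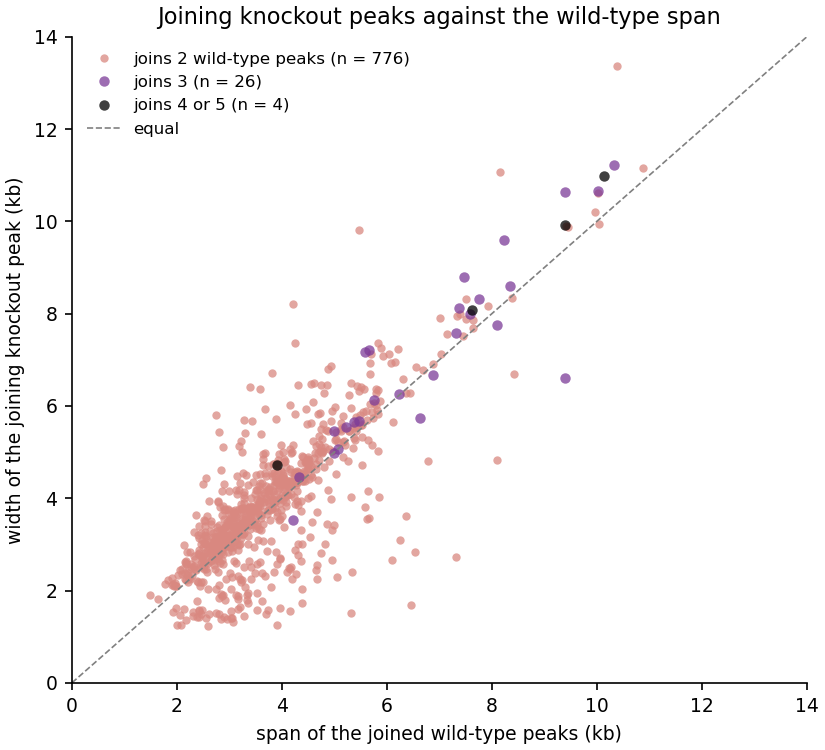
Width of each joining knockout peak (y axis, kb) against the span of the wild-type peaks it joined (x axis, kb), coloured by how many it joined, with the dashed line at equal size. Of the 806 points, 555 lie above the line, and the points far below it are peaks that overlap only part of an outer wild-type peak.

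The chromosomes differed in how many of their gaps were bridged, also at equal gap sizes. For each chromosome the expected number was the sum over its wild-type pairs of the genome-wide share for their gap class. Chromosome 1 had 66 bridged gaps where its gap sizes gave 33.4, a ratio of 1.98 [1.53 to 2.51]. Chromosome 16 had a ratio of 1.78 [1.18 to 2.57] and chromosome 15 one of 1.60 [1.30 to 1.95]. Those of chromosome 13, at 1.52 [1.14 to 1.996], and chromosome 5, at 1.45 [1.14 to 1.82], also had intervals above 1. Chromosome 4 had 36 where its gap sizes gave 103.03, a ratio of 0.349 [0.245 to 0.484]. Chromosomes 17, 6 and 11, with ratios of 0.560, 0.606 and 0.630, had intervals below 1 as well. When at least 50% of each wild-type peak had to be covered, the ratio of chromosome 4 was 0.175. Among pairs with a knockout peak on both it was 0.584 on chromosome 4, and the intervals of chromosomes 16 (1.32 [0.880 to 1.91]), 5 (1.25 [0.981 to 1.57]) and 6 (0.681 [0.410 to 1.06]) then held 1. Over all pairs, on the other 11 chromosomes the interval held 1. The sizes of the 2 lists differed by chromosome too. Chromosome 1 had 3260 knockout peaks and 1924 neighbouring wild-type pairs, and chromosome 4 had 2258 and 3162. The part of list size in the ratios was not tested.

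By count, knockout peaks bridged more gaps than wild-type peaks on 19 of the 20 chromosomes, and chromosome 4 was the exception. There knockout peaks bridged 36 of 3162 wild-type gaps, and wild-type peaks bridged 36 gaps between 2258 knockout peaks. The equal counts are thus a larger share of the knockout gaps. On chromosome 1 the counts were 66 of 1924 wild-type gaps and 4 between 3260 knockout peaks. On chromosome 16 they were 28 of 1070 and 0 between 1707 knockout peaks. On chromosome 15 they were 101 of 2093 and 17 between 2425 knockout peaks. The reverse ratio at equal gap sizes was highest on chromosome 4, at 3.63 [2.54 to 5.02]. Chromosome 12 followed at 3.33 [1.52 to 6.31], from only 9 bridged gaps where 2.71 were expected, and then chromosome 11 at 2.67. Within chromosome 4 the ratio of knockout bridging stayed between 0.224 and 0.490 in the 5 stretches of 20 Mb with at least 5 expected gaps. It was between 1.74 and 3.14 in 3 such stretches of chromosome 1 and between 0.902 and 1.96 in 4 of chromosome 15.

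**Figure D4:**
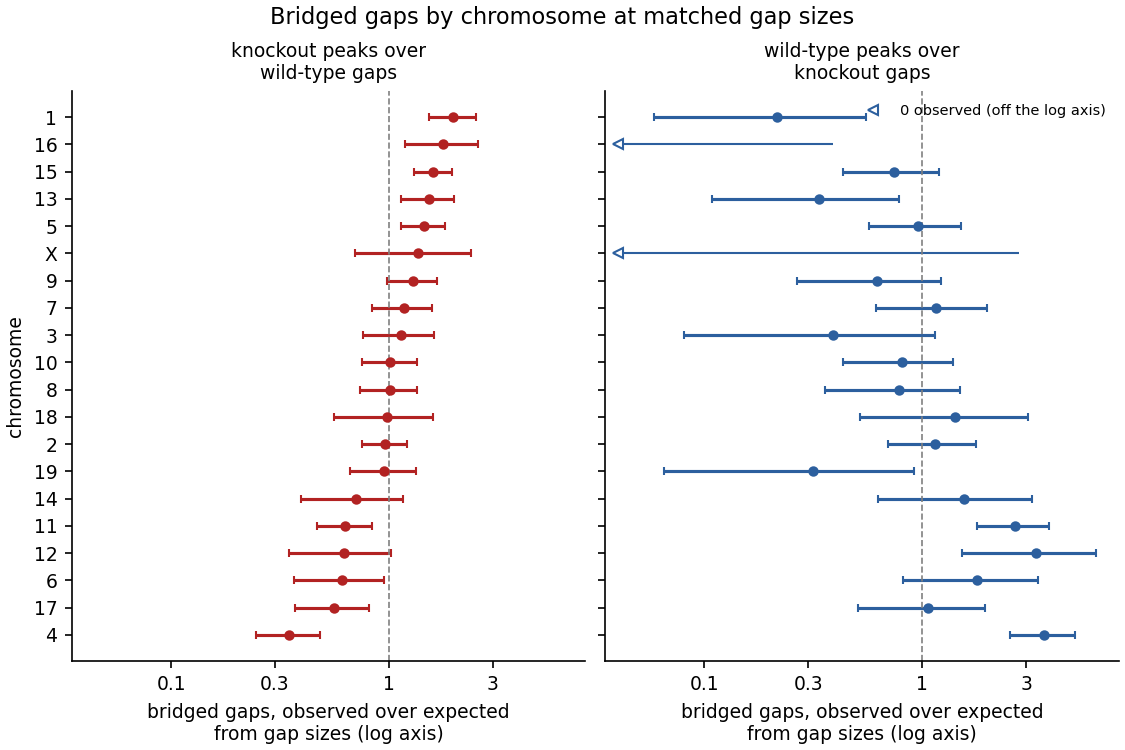
Bridged gaps per chromosome divided by the number that gap sizes alone give (x axis, log scale), with exact Poisson 95% intervals of the observed count, for knockout peaks over wild-type gaps (left) and wild-type peaks over knockout gaps (right). Chromosome 1 is at 1.98 and chromosome 4 at 0.349 on the left, while chromosome 4 is at 3.63 on the right and chromosomes 16 and X have 0 observed.

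The form of the joining peaks differed between chromosomes as well. On chromosome 1 the 60 joining peaks had a median width of 4509 bp, bridged a median gap of 440.5 bp and exceeded the wild-type span by a median of 464 bp. On chromosome 4 the 36 joining peaks had a median width of 2435.5 bp, bridged a median gap of 77 bp and fell short of the span, with a median difference of -784 bp. At least 90% of the joined wild-type bases were covered in 93.3% of the joining peaks of chromosome 1, 81.7% of those of chromosome 15 and 36.1% of those of chromosome 4. Chromosome 15 held 93 joining peaks, 11.5% of all, with a median width of 4725 bp, and 42 of its 93 knockout peaks over 5 kb were joining peaks. It also held 2425 of the 41912 knockout peaks and 206 of the 2545 wild-type gaps under 1000 bp. No joining peak on chromosome 4 was over 5 kb.

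The bridging ratio moved with the general width difference of the chromosome. Matched pairs, which contain no joining peak, were wider in the knockout by a median of 409 bp on chromosome 1. Chromosomes 16 and 15 had 410.5 and 363.5 bp. On chromosome 4 the difference was -32 bp. Over the 20 chromosomes Pearson's r of ratio and width difference was 0.957 and Spearman's rho 0.949, and r was 0.964 without chromosomes 4 and 12. These points share a single pair of libraries and are not replicates, and the part of the width difference in the bridging was not tested.

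The widest joining peak, of 13374 bp, lay at chromosome 15, 98812081 to 98825454. It covered wild-type peaks of 4272 and 5480 bp and the 626 bp between them, and it began 2873 bp before the first of them. Of the 10 widest, 4 lay on chromosome 10, which held 2772 of the 41912 knockout peaks. The peak at 80811274 to 80822502 (11229 bp) joined wild-type peaks of 3854, 1725 and 3288 bp across gaps of 1412 and 40 bp. The peak at 76187794 to 76198953 (11160 bp) joined peaks of 2261 and 8485 bp across 134 bp. The peak at 79506425 to 79517504 (11080 bp) joined peaks of 3207 and 4920 bp across 32 bp and began 2901 bp before them. The peak at 59808486 to 59819110 (10625 bp) joined peaks of 4539 and 5461 bp across 17 bp.

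Bridged gaps made up differing parts of these widths. On chromosome 1 the peak at 135987917 to 135998905 (10989 bp) joined 4 wild-type peaks of 1221 to 1968 bp, and its gaps of 1586, 1358 and 255 bp added up to 3199 bp. The peak at 88393482 to 88404128 on the same chromosome (10647 bp) joined peaks of 1242, 1817 and 4496 bp across gaps of 2241 and 226 bp. In these 2 loci the bridged gaps were a larger part of the width than on chromosome 10. The remaining 3 of the 10 widest lay at chromosome 8, 123635139 to 123645770 (10632 bp), chromosome 18, 61791519 to 61801719 (10201 bp), and chromosome 15, 38379207 to 38389146 (9940 bp). The first joined 3 wild-type peaks and the others 2 each, across gaps of 167 to 511 bp.

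A single knockout peak joined 5 wild-type peaks, at chromosome 15, 103131945 to 103141875. It was 9931 bp wide, and the wild-type peaks were 903, 3109, 1259, 1152 and 1001 bp wide with gaps of 743, 392, 153 and 672 bp between them. Besides the locus on chromosome 1, 2 others joined 4 wild-type peaks. The one at chromosome 13, 21258519 to 21266596 (8078 bp), closed gaps of 195, 23 and 222 bp. The one at chromosome 15, 97982629 to 97987353, was only 4725 bp wide and joined narrow peaks of 532 to 990 bp.

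The longest single gaps bridged lay on chromosomes 15, 13 and 1. A gap of 2511 bp between wild-type peaks of 1168 and 2161 bp was covered at chromosome 15, 36631409 to 36637239, where the knockout peak was 5831 bp wide. Gaps of 2451 and 2369 bp were covered at chromosome 13, 73885602 to 73891213, and at chromosome 15, 101240437 to 101246456. Another, of 2354 bp, was covered at chromosome 1, 135956234 to 135964557, by a peak of 8324 bp that joined 3 wild-type peaks. The one ranked next, of 2241 bp, is in the locus at chromosome 1, 88393482, described before.

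**Figure D5:**
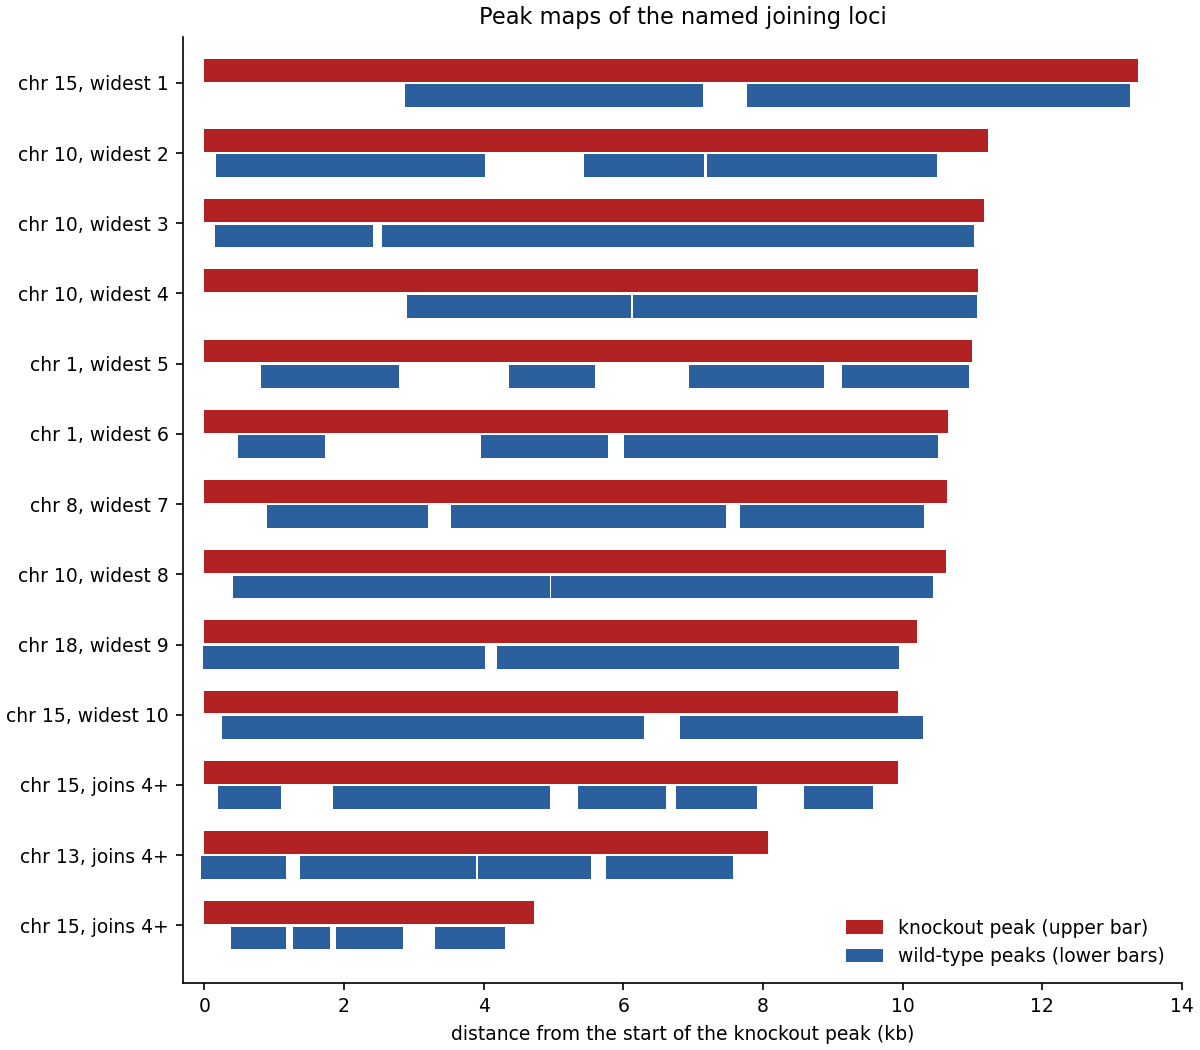
Maps of the 10 widest joining peaks and of the other 3 that join 4 or more wild-type peaks, with distance from the start of the knockout peak on the x axis (kb), the knockout peak as the upper bar and the wild-type peaks as lower bars. The knockout peak ranked first begins 2873 bp before its first wild-type peak, and the first locus of chromosome 1 holds 3 gaps that add up to 3199 bp.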

How the data were processed

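H2A.Z ChIP-seq was deposited by the authors as 1 list of peak positions per genotype, saved from Galaxy per the file headers. The deposited values are starts and ends in bp, with no score, height or count. The submitters' processing notes name the build mm9, MACS 1.4.2, HOMER, Bowtie 0.12.8 and CASAVA 1.8.2. What each did, the peak threshold and whether inputs were used is not given in the sources used here. The distance at which a caller joins enriched stretches sets what counts as a gap.

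Positions were compared with pandas 2.3.3, numpy 2.4.6 and scipy 1.17.1 under Python 3.11.15. Figures were drawn with matplotlib 3.10.9. Starts were printed counting from 1. Shares carry Clopper-Pearson intervals, medians order-statistic intervals and counts exact Poisson intervals. The code was tested on simulated data. No test between genotypes was made, since there is 1 library each. The named loci are the 10 widest joining peaks, those joining 4 or more wild-type peaks, the 5 longest bridged gaps, the 3 windows of 1 Mb with most joining peaks and those nearest the 1 bp limit. Members, classes and rules were chosen with earlier results of these data known. Alternatives tried were other overlap rules, merged or shortened peaks, fewer chromosomes and other matching of gaps. Genes and sequences were not used here, because the annotation at hand is on GRCm38.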

Additional observations from a re-analysis of the deposited data

How the results depend on the processing

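Alternative ratios were computed only for chromosomes 1, 4, 5, 6, 11, 13, 15, 16 and 17, whose intervals over all pairs excluded 1. None of these ratios changed its side of 1 under any alternative, and a change of direction was defined for them only. The other 11 chromosomes, whose intervals held 1, were not tried. Of 169 alternative values, 134 stayed within the interval of the first value or, for counts, within 1.5 times of it. The 50% and centre rules gave identical values, so the 169 are not separate checks. Requiring 100 bp with each wild-type peak gave bridged shares of 53.5% (gaps under 250 bp) and 28.1% (under 1000 bp), a median width of 3887 bp and 249 bp beyond the wild-type span. Requiring 50% of each wild-type peak, or its centre, gave 48.3% and 25.5%, 4026 and 294 bp, 118 wild-type peaks joining knockout peaks and a chromosome 4 ratio of 0.175. Merging peaks within 500 bp in each list gave 523 joining knockout and 108 joining wild-type peaks, 33.1% of the remaining gaps (501 bp and up) under 1000 bp, medians of 5149 bp in width, 871 bp in gap bases and 338 bp beyond the span, and ratios of 0.161 on chromosome 4 and 1.95 on chromosome 15. This alternative has no gap under 250 bp, and its 33.1% compares with 9.74% of the same 1057 gaps bridged by listed knockout peaks, since merging also joins knockout peaks. Knockout peaks shortened by 107 bp at each end gave 735 joining peaks, 53.5%, 28.1% and, for those 735, 35 bp beyond the span. Shortening moves only the outer ends and opens no gap inside a peak. Its bridged shares equal those of the 100 bp rule, and it does not correct bridging for the general width difference. Pairs with a knockout peak on both gave 76.8%, 44.1% and a chromosome 4 ratio of 0.584, and the intervals of chromosomes 16, 5 and 6 (ratios 1.32, 1.25 and 0.681) then held 1. Without knockout peaks that share a wild-type peak with another, an alternative added after seeing the data, the values were 54.2%, 28.1% and 246 bp. Where an alternative's construction does not show it, the cause was not tested. Chromosomes 5, 6, 11, 13, 16 and 17 kept their ratio on its side of 1 in all 70 alternative values, and those 3 are the only ones whose interval held 1. No paired analysis was possible because there is only 1 library of either genotype. As depth is unknown, a difference in depth between the libraries cannot be told apart from one in genotype.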

Other observations

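The joining peaks were spread widely, with some crowded stretches. The next joining peak on the chromosome lay a median of 829.7 kb away [729.5 to 998.0], and for 95 of 786 it lay within 50 kb. In 33 cases the very next knockout peak was a joining peak too. Of 521 windows of 1 Mb with a joining peak, 350 held a single one and 11 held 5 or more.

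The most crowded windows were chromosome 10, 80000001 to 81000000, and chromosome 15, 78000001 to 79000000, with 10 joining peaks each. In the first, the knockout list had 97 peaks and the wild-type list 102, and 11 of the 23 wild-type gaps under 1000 bp were bridged. In the second, the lists had 84 and 73 peaks, and 11 of 14 such gaps were bridged. Next came chromosome 15, 79000001 to 80000000, with 7 joining peaks and 6 of 12 such gaps bridged, named ahead of a window on chromosome 19 with 7 by the order of chromosomes. Peak-rich windows have more short gaps to bridge, and no number given by chance was computed.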
